A study of Danio rerio with 6 samples.

Results

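Hox cluster genes encode homeodomain transcription factors that give cells their position along the head-to-tail axis. They were followed here in whole zebrafish larvae that carry, by their labels, either mutant or wild-type alleles of stim2a and stim2b. The members are the genes whose zebrafish symbol is hox followed by a, b, c or d and a digit. There were 48 such genes among the 32520 genes of the deposited tables, and all 48 exceeded 0.1 TPM (a transcript level scaled for gene length and for the total of the library) in at least 3 libraries, the minimum for description and testing. The larvae were untreated and 5 days old, counted from fertilization, and each of the 6 RNA samples was a pool of 30. The labels give 3 samples as (stim2a;stim2b)-/- and 3 as (stim2a;stim2b)+/+, without naming the mutant alleles, a background strain or a clutch, so p-values measure the spread between these pools. STIM2 proteins sense calcium in the endoplasmic reticulum and open calcium channels of the plasma membrane.

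The RNA of the 2 targeted genes went against the labels. stim2a had 1.31, 1.41 and 1.2 TPM in the libraries labelled -/- and 0.33, 0.25 and 0.40 TPM in those labelled +/+. stim2b had 1.52, 1.35 and 1.85 TPM in the libraries labelled -/- and 0.54, 0.48 and 0.72 TPM in those labelled +/+. Both genes were higher in every library labelled -/- than in every library labelled +/+ (exact two-sided permutation test, p = 0.1 for each, the smallest p that 3 against 3 allows). The names of the deposited tables also run against the labels. The labels do not place the mutations in the genes, and these levels do not settle which libraries carry them. Every direction below is therefore that of libraries labelled -/- relative to libraries labelled +/+.

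In vertebrates the Hox genes stand in clusters whose order along the chromosome follows the order of expression along the body. Genes of the low-numbered paralog groups act in the hindbrain, the neural crest of the pharyngeal arches and the upper spinal cord. Those of the middle groups act in the trunk, and those of the highest groups in the tail, the hindgut and the fins. Zebrafish descend from an ancestor whose genome doubled, so clusters and many single genes exist as an a and a b copy. By the larval stage studied here the body axis is laid out, and Hox RNA is known to persist in the hindbrain, the spinal cord, the gut and the fins.

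The 48 genes lay in 7 clusters, located here by the coordinates of the deposited tables; the submitters' processing notes list danRer11 among their builds, without giving its role. The hoxba cluster on chromosome 3 (23654233 to 23771945) and the hoxca cluster on chromosome 23 (35969228 to 36190988) held 11 genes each. The hoxda cluster held 7 genes on chromosome 9 (1937049 to 1990323), the hoxaa cluster 6 on chromosome 19 (19729506 to 19787752) and the hoxab cluster 5 on chromosome 16 (20895904 to 20929183). The hoxbb cluster on chromosome 12 (27117609 to 27142834) and the hoxcb cluster on chromosome 11 (2156430 to 2204754) held 4 each. All members of a cluster lay on 1 strand.

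Gene models of 20 members overlap another member on the same strand. The model of hoxb3a runs over 73949 bases and covers hoxb1a, hoxb2a, hoxb4a, hoxb5a and hoxb6a. That of hoxc3a runs over 62153 bases and covers hoxc4a, hoxc5a, hoxc6a, hoxc8a and hoxc9a, and that of hoxc10a, over 117668 bases, covers hoxc11a, hoxc12a and hoxc13a. The model of hoxa3a covers hoxa5a, and that of hoxd3a covers hoxd4a. These are spans from first to last exon; neither headers nor labels say how fragments were shared among overlapping models, so the level of each of these 20 genes is uncertain by what its neighbours may have taken or given. The summed TPM of an overlapping set is therefore given beside its single genes.

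Together the 48 genes took 418.0, 411.9 and 467.8 TPM in libraries labelled -/- and 405.8, 401.0 and 432.7 TPM in those labelled +/+. The groups overlap, with a mean of 432.6 ± 30.7 TPM in libraries labelled -/-, against 413.1 ± 17.1 TPM in those labelled +/+. All means here carry the SD over n = 3 libraries. Averaged over all 6 libraries, 16 genes stood at 10 TPM or more, 30 between 1 and 10 TPM, and 2 below 1 TPM. The lowest were hoxb1a, which in zebrafish sets the identity of 1 hindbrain segment, at 0.852 ± 0.173 TPM in libraries labelled -/- and 0.898 ± 0.0754 TPM in those labelled +/+, and hoxc13b, at 0.742 ± 0.0335 TPM in libraries labelled -/- and 0.674 ± 0.0518 TPM in those labelled +/+.

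The highest levels came from paralog group 3 and from the hoxca cluster. hoxa3a averaged 35.3 ± 7.07 TPM in libraries labelled -/- and 28.4 ± 0.705 TPM in those labelled +/+. hoxc3a averaged 32.2 ± 1.69 TPM in libraries labelled -/- and 32.3 ± 1.97 TPM in those labelled +/+. In the libraries labelled +/+ hoxc5a, hoxc6a, hoxc8a, hoxc12a and hoxb3a came next, and from hoxc6a onward each gene's replicates overlapped those of the next. In the libraries labelled -/- hoxb3a and hoxc12a stood ahead of hoxc5a. Level did not follow position along the axis closely: across the 48 genes, paralog group number and mean TPM in libraries labelled +/+ had a Spearman correlation of -0.12, a description over genes that share the same libraries and clusters. The neighbouring genes hoxc12a and hoxc13a, for example, averaged 20.1 ± 2.46 and 6.88 ± 0.537 TPM in libraries labelled -/-, and 18.2 ± 1.26 and 7.92 ± 0.397 TPM in those labelled +/+. With hoxc11a and with hoxc10a, whose model covers these 3 genes, they summed to 42.4 ± 2.98 TPM in libraries labelled -/- and 43.0 ± 1.68 TPM in those labelled +/+, and the groups overlap.

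**Figure D1:**
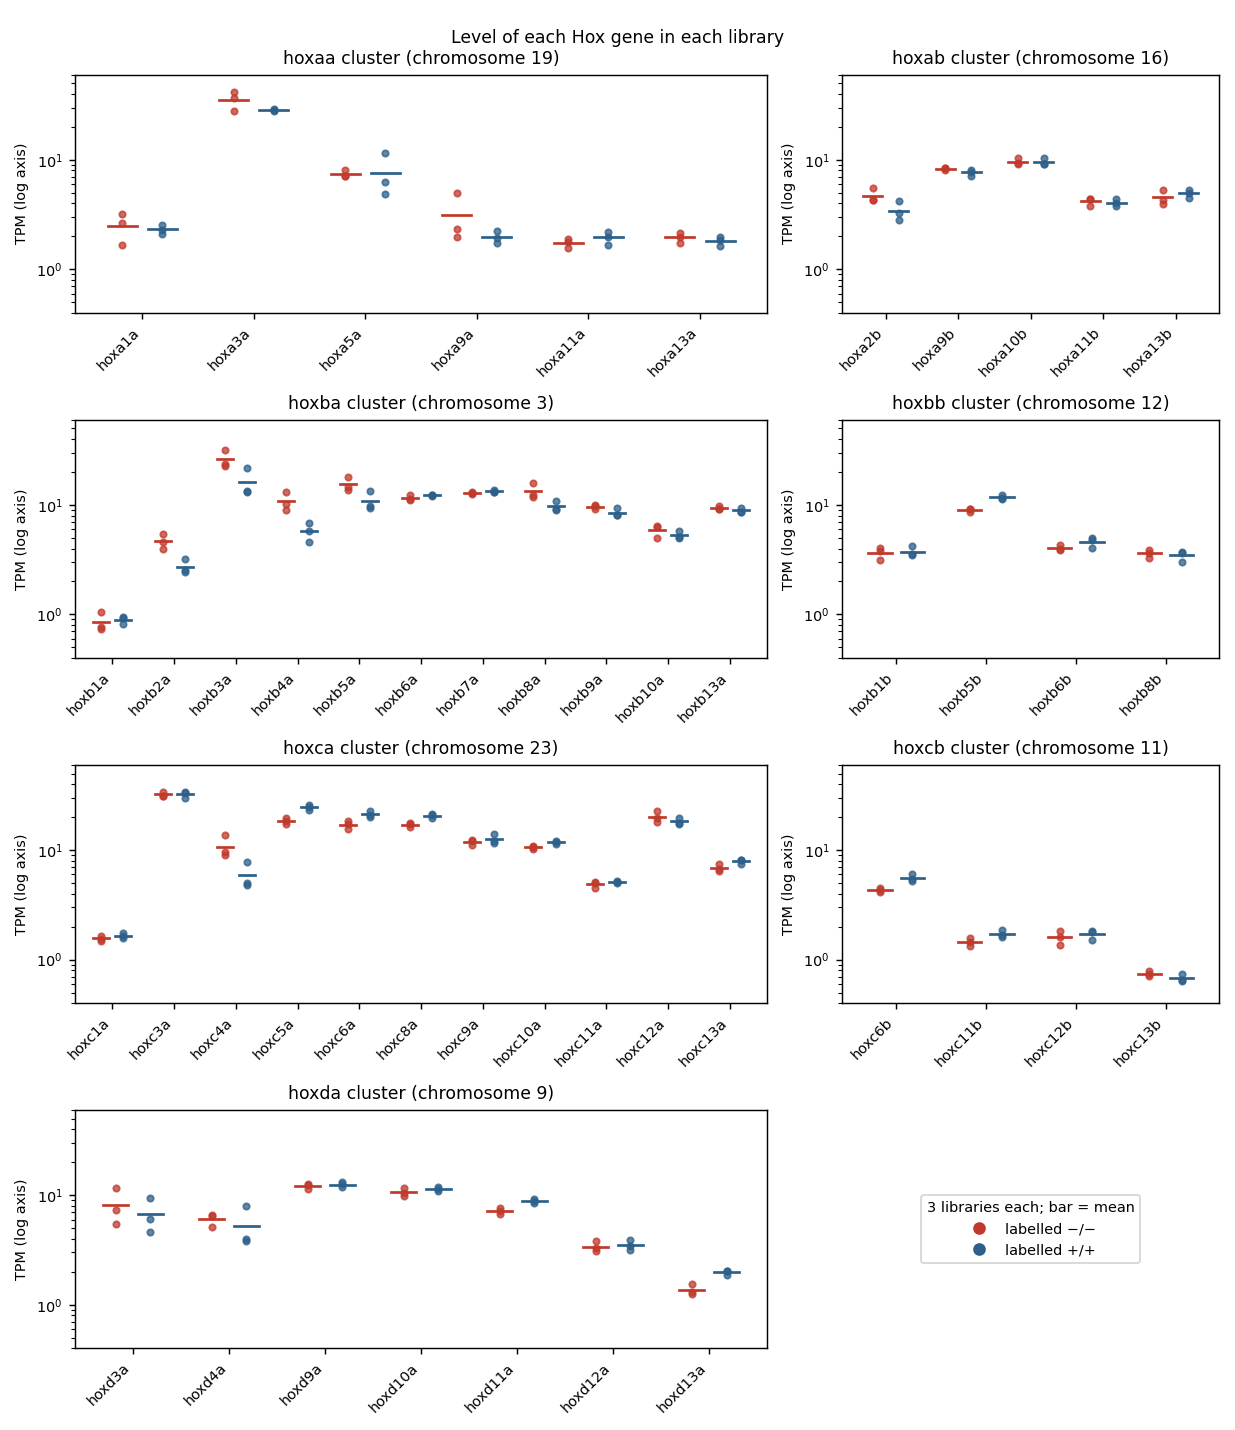
TPM of each of the 48 Hox genes on a log axis, 1 panel per cluster with genes in order of paralog group; points are libraries (labelled -/- red and left, labelled +/+ blue and right) and bars are means. Levels run from below 1 TPM for hoxb1a and hoxc13b to the highest means of each labelled genotype, 35.3 TPM for hoxa3a (labelled -/-) and 32.3 TPM for hoxc3a (labelled +/+).

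Of the 48 genes, 9 passed the test across all genes (limma on log2(TPM + 0.5), Benjamini-Hochberg over 24682 genes, adjusted p under 0.05). The 6 that rose in libraries labelled -/- were hoxb2a, hoxb3a, hoxb4a, hoxc4a, hoxb5a and hoxb8a, and the 3 that fell were hoxb5b, hoxc5a and hoxd13a. Of all genes tested, 25.2% rose and 8.23% fell, and 33.4% were called either way. Among the Hox genes 12.5% rose and 6.25% fell, so that 18.8% were called from TPM as deposited, a lower share than among all genes. The median log2 difference was -0.02 over the 48 Hox genes and 0.17 over all genes tested, so that the typical gene had a higher TPM in libraries labelled -/-. After each library was rescaled by its median gene ratio, which brings the median of all genes to -0.01, 4 Hox genes rose and 12 fell. That makes 16 of the 48 called, where 18.6% of all genes rose and 19.4% fell (37.9% called). The calls for hoxb5a and hoxb8a are lost by that rescaling, and the other 7 are kept. With the replicate number as a block, 7 Hox genes rose and 7 fell, where 38.6% of all genes rose and 12.0% fell (50.6% called). The labelled genotypes did not overlap for 7 Hox genes on the higher and 11 on the lower side; among all genes this held for 35.6% and 16.2%, 51.8% in all.

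The 9 calls depended on which libraries were kept. Without replicate 1 or replicate 2 labelled +/+, no Hox gene passed in limma (at an unadjusted p under 0.05, 4 were higher and 5 lower, or 5 higher and 4 lower). The calls among all genes dropped as well, to 343 higher and 379 lower, or to 254 higher and 344 lower. Without replicate 1 labelled -/- the calls that remained were hoxb4a, hoxc4a and hoxc5a (2858 genes higher in all), and without replicate 3 labelled -/- they were hoxb4a and hoxc5a (2860 higher). Leaving out replicate 2 labelled -/- lost hoxb3a, hoxb5a and hoxd13a and added hoxa3a, and leaving out replicate 3 labelled +/+ lost none of the 9. Fold changes of the 9 genes kept their sign in every one of these fits, which used TPM as deposited. On rescaled TPM, in fits chosen after seeing the data, hoxc5a and hoxb5b stayed called lower whichever library was left out. The rest of the 9 were each not called in at least 1 such fit. Outside the 9, hoxc6b and hoxd11a were also called lower in all of them. For the other 39 genes the log2 difference ran from -0.33 to 0.46, and 17 were positive and 22 negative.

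**Figure D2:**
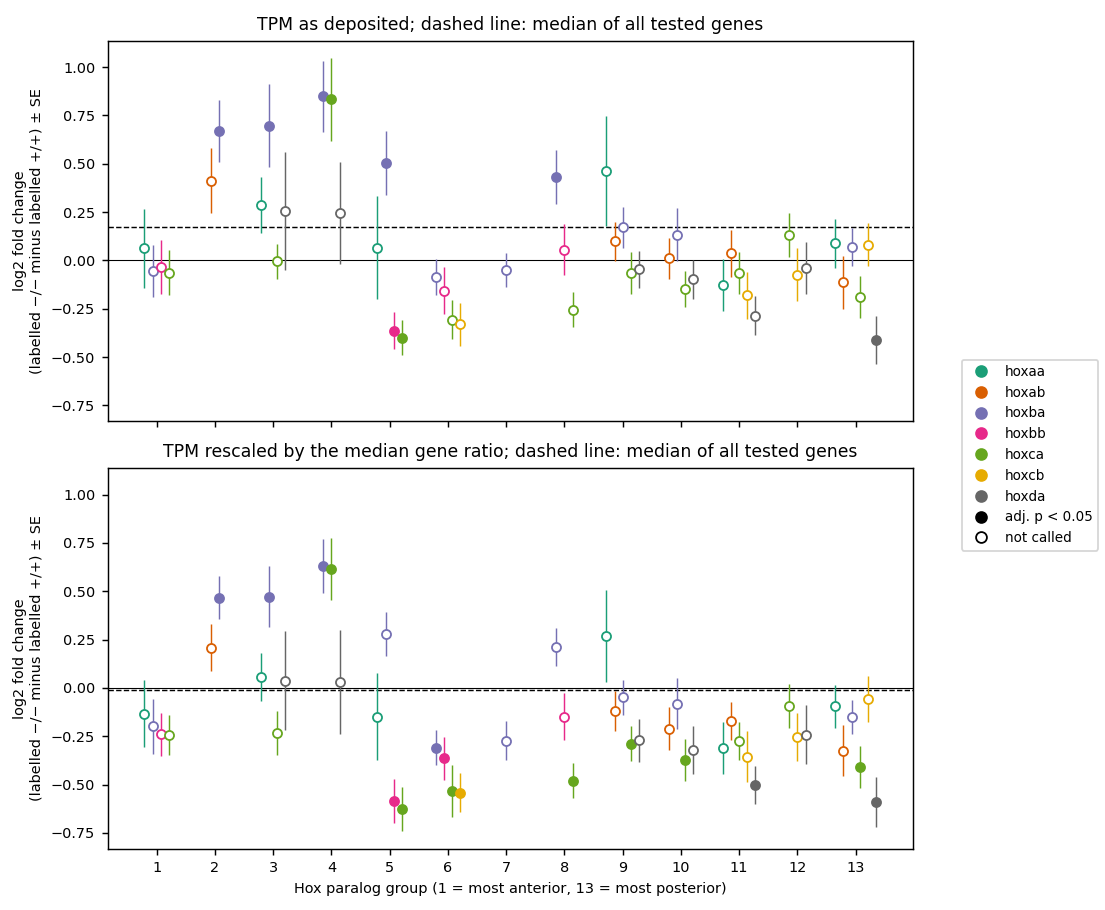
Log2 difference of each Hox gene (libraries labelled -/- minus libraries labelled +/+) with its standard error against paralog group, coloured by cluster, from deposited TPM (upper panel) and rescaled TPM (lower panel); filled points passed the test and the dashed line is the median of all tested genes, 0.17 and -0.01. Called genes that rose lie in groups 2 to 5 and 8 in the upper panel, and 12 genes of groups 5 to 13 are called lower in the lower panel.

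Of the 6 genes that rose, 5 lay in the hoxba cluster and 1, hoxc4a, in the hoxca cluster. Paralog group 4, whose genes act in the lower hindbrain and the neck region, held the pair with the largest fold changes. hoxb4a (ENSDARG00000013533, chromosome 3, 23710839 to 23723982) had 8.95, 10.1 and 13.1 TPM in the libraries labelled -/- and 4.61, 5.74 and 6.89 TPM in those labelled +/+. Its groups do not overlap, and it stood 1.87-fold higher in libraries labelled -/- (log2 difference 0.85 ± 0.18 SE, limma adjusted p = 0.0194). hoxc4a (ENSDARG00000070338, chromosome 23, 36130883 to 36132563) had 9.06, 9.64 and 13.6 TPM in the libraries labelled -/- and 5.04, 4.80 and 7.75 TPM in those labelled +/+. The groups are again apart, with a ratio of 1.84 (log2 difference 0.83 ± 0.21 SE, limma adjusted p = 0.0273). The other member, hoxd4a, which retinoic acid switches on in the zebrafish hindbrain, had 6.50, 5.08 and 6.58 TPM in the libraries labelled -/- and 4.01, 8.04 and 3.81 TPM in those labelled +/+. Replicate 2 labelled +/+ was the highest of the 6, so the groups overlap (limma adjusted p = 0.483). The same library had the lowest level of hoxd3a, whose model covers hoxd4a; summed, the pair had 12.0, 12.4 and 18.2 TPM in libraries labelled -/- and 10.1, 12.7 and 13.1 TPM in those labelled +/+.

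Paralog group 3 acts in the hindbrain and in the pharyngeal arches and their glands. hoxb3a (ENSDARG00000029263, chromosome 3, 23697997 to 23771945) had 22.7, 23.8 and 31.6 TPM in the libraries labelled -/- and 13.1, 13.4 and 21.9 TPM in those labelled +/+. The gap between the groups was narrow, since replicate 3 labelled +/+ came close to replicate 1 labelled -/- (ratio 1.61, log2 difference 0.70 ± 0.21 SE, limma adjusted p = 0.0417). hoxa3a had 36.3, 27.7 and 41.7 TPM in the libraries labelled -/- and 29.1, 27.7 and 28.6 TPM in those labelled +/+, with overlapping groups (limma adjusted p = 0.153). Replicate 2 labelled -/- was the lowest of the libraries labelled -/- and stood level with those labelled +/+. Summed with hoxa5a, which lies inside its model, hoxa3a gave 42.7 ± 6.51 TPM in libraries labelled -/- and 36.0 ± 3.52 TPM in those labelled +/+, again with overlapping groups. hoxc3a had 31.4, 34.1 and 31.0 TPM in the libraries labelled -/- and 34.0, 30.1 and 32.9 TPM in those labelled +/+ (limma adjusted p = 0.970). The level of hoxd3a varied within both groups more than between them, at 8.13 ± 3.15 TPM in libraries labelled -/- and 6.69 ± 2.41 TPM in those labelled +/+. Among the 4 genes of the group, hoxb3a was the one that passed.

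Paralog group 2 gives the second pharyngeal arch its identity, a task that hoxa2b and hoxb2a share in zebrafish. hoxb2a (ENSDARG00000000175, chromosome 3, 23752150 to 23754831) had 4.60, 3.92 and 5.40 TPM in the libraries labelled -/- and 2.42, 2.53 and 3.22 TPM in those labelled +/+. It was higher in each library labelled -/- than in any labelled +/+ (ratio 1.70, log2 difference 0.67 ± 0.16 SE, limma adjusted p = 0.0227). hoxa2b had 4.33, 4.32 and 5.47 TPM in the libraries labelled -/- and 2.81, 3.26 and 4.24 TPM in those labelled +/+. Its groups are separated by the small step between 4.32 and 4.24 TPM, and it missed the threshold (log2 difference 0.41, limma adjusted p = 0.0909; 0.0127 with the replicate block). The 4 genes of paralog group 1, which act earlier in hindbrain segmentation, differed by -0.06 to 0.06 on the log2 scale, none called.

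Further back in the hoxba cluster, hoxb5a and hoxb8a rose by less. hoxb5a (ENSDARG00000013057, chromosome 3, 23707691 to 23710095), a group 5 gene of the upper trunk, had 13.7, 14.7 and 18.1 TPM in the libraries labelled -/- and 9.32, 9.84 and 13.3 TPM in those labelled +/+. The highest library labelled +/+ lay just below the lowest labelled -/- (ratio 1.43, log2 difference 0.50 ± 0.16 SE, limma adjusted p = 0.0480; 0.0828 when rescaled). hoxb8a (ENSDARG00000056027, chromosome 3, 23687909 to 23690481) had 12.3, 11.8 and 15.9 TPM in the libraries labelled -/- and 9.19, 9.07 and 10.8 TPM in those labelled +/+. Groups were apart here as well (ratio 1.38, log2 difference 0.43 ± 0.14 SE, limma adjusted p = 0.0469; 0.118 when rescaled). hoxb8a is the one of the 6 genes whose model overlaps no other member. In all 6 genes that rose, replicate 3 was the highest library of each labelled genotype, against 29 of 48 Hox genes in libraries labelled -/- and 23 of 48 in those labelled +/+.

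**Figure D3:**
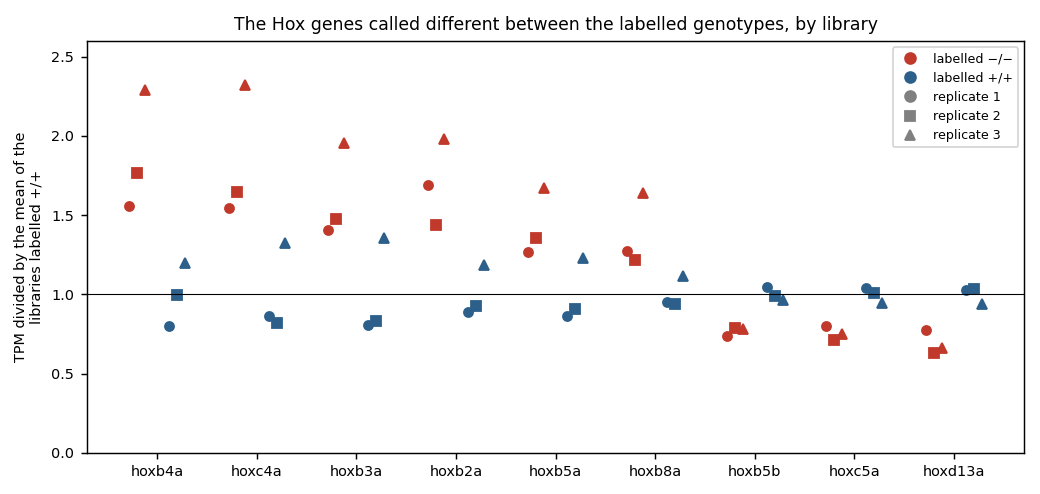
TPM of the 9 called Hox genes in each library, divided by the gene's mean over the libraries labelled +/+ (line at 1); colour gives the labelled genotype, with labelled -/- on the left, and symbol the replicate. Replicate 3 is the highest library of each labelled genotype for all 6 genes that rose, and it also has the largest median gene ratio of each. All 9 genes have groups that do not overlap in TPM as deposited.

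Along the hoxba cluster the called genes were not a continuous run. hoxb6a, between hoxb5a and hoxb8a, had 11.6 ± 0.646 TPM in libraries labelled -/- and 12.3 ± 0.184 TPM in those labelled +/+ (limma adjusted p = 0.485). hoxb7a, the next gene, had 13, 12.7 and 12.9 TPM in libraries labelled -/- and 13.2, 13.7 and 13.1 TPM in those labelled +/+ (limma adjusted p = 0.676). At the ends of the cluster hoxb1a, hoxb9a, hoxb10a and hoxb13a were not called. Summed over its 11 genes, the cluster averaged 120.4 ± 13.6 TPM in libraries labelled -/- and 94.4 ± 10.4 TPM in those labelled +/+. The groups did not overlap in TPM as deposited. The lowest library labelled -/- was replicate 1, at 111.9 TPM, and the highest labelled +/+ was replicate 3, at 106.4 TPM. Rescaling divides them by 1.073 and 1.016, after which the groups overlap. As deposited, the cluster held 5 of the 6 genes that rose and none that fell. The overlapping set of hoxb3a and the 5 genes inside its model summed to 61.9, 64.8 and 81.2 TPM in libraries labelled -/- and 42.3, 44.9 and 58.8 TPM in those labelled +/+. That sum was itself higher in each library labelled -/- than in any labelled +/+ as deposited, but its groups overlap after the same rescaling. When rescaled, the groups of hoxb3a and hoxb5a overlap as well, while those of hoxb2a, hoxb4a and hoxb8a stay apart.

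In the hoxca cluster a gene that rose stands beside genes that were lower. hoxc5a (ENSDARG00000070340, chromosome 23, 36118738 to 36120511), the neighbour of hoxc4a, had 19.7, 17.4 and 18.3 TPM in the libraries labelled -/- and 25.6, 24.8 and 23.2 TPM in those labelled +/+. The groups are well apart, and levels in libraries labelled +/+ were 1.33-fold higher (log2 difference -0.40 ± 0.09 SE, limma adjusted p = 0.0214). hoxc6a, a thoracic group gene, had 17.4, 18.3 and 15.7 TPM in libraries labelled -/- and 20.7, 23.0 and 20.1 TPM in those labelled +/+. It missed the threshold narrowly (log2 difference -0.31, limma adjusted p = 0.0510), at 0.0205 when rescaled and 0.0112 with the replicate block. hoxc8a, next in the order, had 16.1, 17.4 and 17.8 TPM in libraries labelled -/- and 19.5, 20.8 and 21.1 TPM in those labelled +/+. Here too the groups do not overlap (log2 difference -0.25, limma adjusted p = 0.0618; 0.00935 when rescaled and 0.0202 with the block). Both hoxc4a and hoxc5a lie inside the hoxc3a model, and the 6 genes of that set summed to 104.8, 109.1 and 108.7 TPM in libraries labelled -/- and 116.3, 115.6 and 119.0 TPM in those labelled +/+. The whole cluster stood at 151.5 ± 3.76 TPM in libraries labelled -/- and 161.6 ± 2.13 TPM in those labelled +/+.

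**Figure D4:**
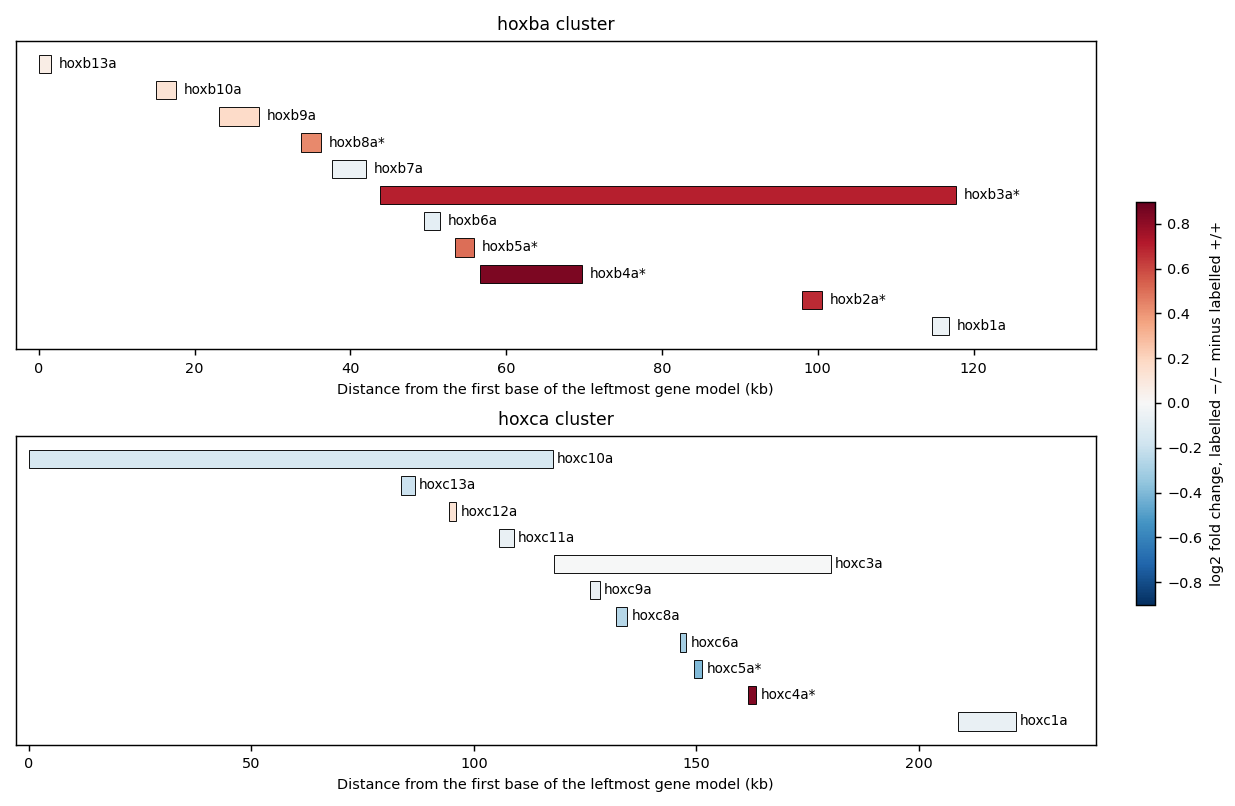
Gene models of the hoxba and hoxca clusters to scale, in kb from the first base of the leftmost model, each on its own line and coloured by log2 difference (libraries labelled -/- minus libraries labelled +/+); asterisks mark called genes. The long models of hoxb3a, hoxc3a and hoxc10a cover several neighbours, and hoxc4a, at 0.83, stands beside hoxc5a, at -0.40.

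hoxb5b and hoxd13a were the other genes that fell, and neither model overlaps another member. hoxb5b (ENSDARG00000054030, chromosome 12, 27129659 to 27131735), the second copy of hoxb5, had 8.62, 9.19 and 9.18 TPM in the libraries labelled -/- and 12.3, 11.6 and 11.3 TPM in those labelled +/+. Its replicates lie close together and the groups apart, 1.3-fold higher in libraries labelled +/+ (log2 difference -0.36 ± 0.10 SE, limma adjusted p = 0.0285). hoxd13a (ENSDARG00000059256, chromosome 9, 1986816 to 1990323), which shapes the outer fin skeleton in zebrafish, had 1.53, 1.25 and 1.31 TPM in the libraries labelled -/- and 2.03, 2.04 and 1.86 TPM in those labelled +/+. The groups do not overlap at this low level, with a ratio of 1.45 in favour of libraries labelled +/+ (log2 difference -0.41 ± 0.12 SE, limma adjusted p = 0.0388). The call for hoxd13a was lost when any library other than replicate 3 labelled +/+ was left out. The genes hoxc6b and hoxd11a were also lower in every library labelled -/- and were called when rescaled and with the block. By value, hoxc6b had 4.11, 4.47 and 4.36 TPM in libraries labelled -/- and 5.49, 5.17 and 6.03 TPM in those labelled +/+ (limma adjusted p = 0.0562; 0.00883 when rescaled and 0.0263 with the block). hoxd11a had 7.21, 6.74 and 7.63 TPM in libraries labelled -/- and 9.19, 8.57 and 8.85 TPM in those labelled +/+ (limma adjusted p = 0.0639; 0.00997 when rescaled and 0.0262 with the block). The rescaled calls for lower levels also included hoxb6a, hoxb6b, hoxc9a, hoxc10a and hoxc13a.

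Of the 23 posterior genes, of paralog groups 9 to 13, hoxd13a was the 1 that was called from TPM as deposited. Their median log2 difference was -0.05, where that of all genes tested was 0.17, and 1 of the 23 lay above 0.17. When rescaled, their median was -0.25, and 5 were called lower and 0 higher. hoxd9a, of the lower trunk group 9, averaged 12.1 ± 0.668 TPM in libraries labelled -/- and 12.5 ± 0.684 TPM in those labelled +/+. hoxa9a had 1 library apart, with 2.34, 1.98 and 5.00 TPM in libraries labelled -/- and 1.73, 1.93 and 2.24 TPM in those labelled +/+. Its log2 difference of 0.46, the highest among genes not called, thus rests on replicate 3 labelled -/- (limma adjusted p = 0.229). hoxb13a and hoxa13b, of the tail and fin group 13, averaged 9.38 ± 0.302 and 4.54 ± 0.707 TPM in libraries labelled -/-, and 8.92 ± 0.443 and 4.93 ± 0.383 TPM in those labelled +/+. Neither passed the test, and their groups overlap in TPM as deposited. When rescaled, hoxd9a and hoxb13a were lower in every library labelled -/- than in any labelled +/+, though neither was called.

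Grouped by place along the axis, the anterior genes held a larger share of Hox RNA in libraries labelled -/- and the central genes a smaller one. The 13 genes of groups 1 to 4 made up 32.9%, 32.6% and 36.3% of all Hox TPM in libraries labelled -/-, against 26.9%, 27.1% and 29.6% in those labelled +/+. The 12 genes of groups 5 to 8 made up 31.2%, 32.3% and 29.8% in libraries labelled -/- and 34.5%, 36.0% and 35.0% in those labelled +/+. Both shares are apart between the groups, while that of the 23 posterior genes overlaps. The models of hoxa3a, hoxb3a and hoxc3a cover central genes, so both shares are uncertain by what overlapping models may have taken or given. All 4 anterior genes that rose have models that overlap another member. The anterior genes with separate models, hoxa1a, hoxa2b, hoxb1b and hoxc1a, were not called from TPM as deposited. As sums, the anterior genes averaged 147.1 ± 19.7 TPM in libraries labelled -/- and 115.3 ± 10.9 TPM in those labelled +/+, and the posterior genes 151.1 ± 7.0 TPM in libraries labelled -/- and 152.6 ± 4.34 TPM in those labelled +/+. Within the anterior class 4 of 13 genes rose and none fell; within the central class 2 rose and 2 fell. As shares, 30.8% of the anterior and 16.7% of the central genes rose, against 25.2% of all genes tested, so the anterior share was near that of all genes. When rescaled, 4 anterior genes rose and none fell, while 7 central and 5 posterior genes fell and none rose, where 18.6% of all genes rose and 19.4% fell. By paralog group, the sum as deposited was higher in every library labelled -/- for groups 2, 3 and 4, and lower for groups 6, 7 and 11. For group 3 the step was narrow, from 92.7 TPM in replicate 3 labelled +/+ to 93.0 TPM in replicate 2 labelled -/-. After rescaling the sums of group 3 overlap, while those of groups 2 and 4 stay apart. Group 7 is hoxb7a alone, which was not called. Group 4 averaged 27.6 ± 5.00 TPM in libraries labelled -/- and 16.9 ± 2.80 TPM in those labelled +/+, and group 6 averaged 37.1 ± 0.778 TPM in libraries labelled -/- and 43.7 ± 0.737 TPM in those labelled +/+. Across the 48 genes the Spearman correlation of paralog group number with the log2 difference was -0.31, and over the 28 genes whose models overlap no other member it was -0.08; the genes share libraries and neighbours, so these are descriptions. Because the larvae were sequenced whole, fewer cells of a kind and less RNA per cell cannot be told apart.

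A total of 11 Hox genes are present as an a and a b copy, and the a copy was the higher one in 7 of these pairs. hoxc12a stood 11.5-fold and hoxc13a 10.5-fold above the b copy, averaged over all libraries, while hoxb1b, hoxa9b, hoxa11b and hoxa13b stood 4.23-, 3.15-, 2.23- and 2.51-fold above the a copy. The closest balance belonged to hoxb5, and it was the pair whose copies were called in opposite directions. hoxb5a made up 61.4%, 61.5% and 66.3% of the summed TPM of the pair in libraries labelled -/- and 43.2%, 45.9% and 54.2% in those labelled +/+. In every library labelled -/- hoxb5a exceeded hoxb5b, whereas in libraries labelled +/+ it did so in replicate 3 alone. The a share of hoxc13 was lower in libraries labelled -/-, at 90.5%, 90.0% and 90.2%, than in libraries labelled +/+, at 91.8%, 91.9% and 92.7%. For the other 9 pairs the shares overlapped between the labelled genotypes. Reads that match both copies may have been split between them, which can alter such shares.

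**Figure D5:**
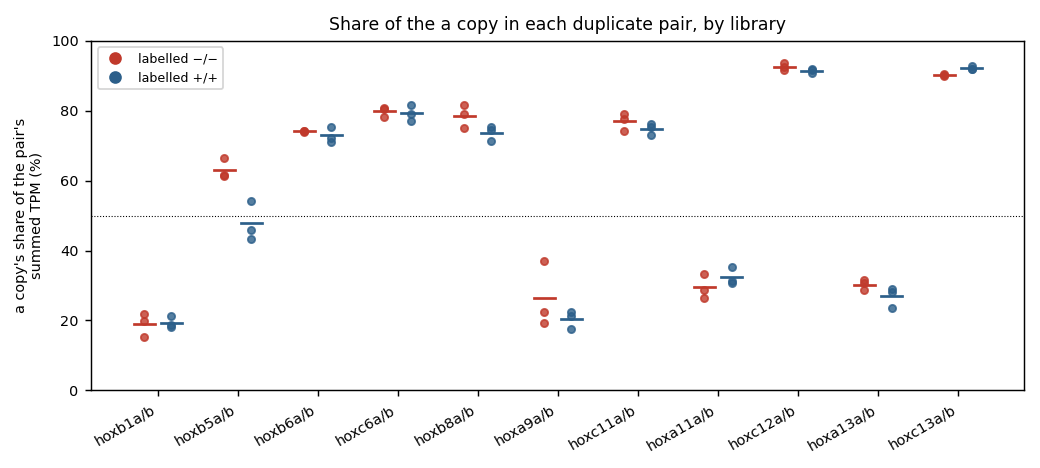
Share of the a copy in the summed TPM of each of the 11 duplicate pairs, in percent, with 1 point per library and a bar at the mean, libraries labelled -/- left of those labelled +/+; the dotted line marks equal copies. For hoxb5 the 3 libraries labelled -/- lie between 61.4% and 66.3% and those labelled +/+ between 43.2% and 54.2%, and for 9 pairs the groups overlap.

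The partners of Hox proteins on DNA were mostly higher in libraries labelled -/-. Of 14 genes of the Meis, Pbx and Pknox families, homeodomain cofactors that bind DNA together with Hox proteins, 11 rose and none fell, where 25.2% of all genes rose and 8.23% fell, with a median log2 difference of 0.61 (0.17 for all genes). meis2a had 53.0, 49.5 and 79.9 TPM in the libraries labelled -/- and 24.2, 23.9 and 37.9 TPM in those labelled +/+ (log2 difference 1.07, limma adjusted p = 0.0191). Its groups do not overlap. pbx3b averaged 42.0 ± 8.58 TPM in libraries labelled -/- and 22.7 ± 4.44 TPM in those labelled +/+ (log2 difference 0.87, limma adjusted p = 0.0173). When rescaled, 8 of the 14 were called higher, where 18.6% of all genes were; without replicate 1 or replicate 2 labelled +/+ none was called, and without replicate 1 or replicate 3 labelled -/- 6 and 5 were.

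Among 24 regulators upstream of Hox genes, made up of the retinoic acid pathway, Cdx factors and hindbrain segmentation genes, 14 rose and none fell (median 0.63), where 25.2% of all genes rose and 8.23% fell. raraa, a retinoic acid receptor, averaged 16.2 ± 3.06 TPM in libraries labelled -/- and 8.98 ± 0.981 TPM in those labelled +/+ (log2 difference 0.81, limma adjusted p = 0.0144). egr2b, the zebrafish krox20 that acts in hindbrain segments ahead of hoxa2b and hoxb2a, averaged 4.38 ± 0.983 TPM in libraries labelled -/- and 1.79 ± 0.352 TPM in those labelled +/+ (log2 difference 1.08, limma adjusted p = 0.0130). cdx1a, a caudal-type homeobox gene, averaged 2.75 ± 0.355 TPM in libraries labelled -/- and 1.05 ± 0.379 TPM in those labelled +/+ (log2 difference 1.09, limma adjusted p = 0.0129). The count was also 14 when rescaled (18.6% of all genes). It was 0 without replicate 1 or replicate 2 labelled +/+, 8 without replicate 1 labelled -/- and 7 without replicate 3 labelled -/-. Whether these regulators or the cofactors had a part in the Hox differences was not tested.

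Most neuron markers rose in the same libraries as the called anterior Hox genes. For the counts of these markers, 25.2% of all genes rose and 8.23% fell as deposited, and 18.6% rose and 19.4% fell when rescaled. Of 10 neuron markers 7 rose and 1 fell (7 and 2 when rescaled), and none was at 0. As deposited, their summed TPM lay between 981.3 and 1255 in libraries labelled -/- and between 801.3 and 965.5 in those labelled +/+. The lowest sum labelled -/- was that of replicate 1, and the highest labelled +/+ that of replicate 3. Rescaling divides them by 1.073 and 1.016, after which the groups overlap. snap25b, a synaptic release protein, averaged 132.4 ± 27.0 TPM in libraries labelled -/- and 57.5 ± 16.3 TPM in those labelled +/+ (log2 difference 1.21, limma adjusted p = 0.0128). Its second copy snap25a averaged 167.6 ± 11.5 TPM in libraries labelled -/- and 173.8 ± 16.4 TPM in those labelled +/+, not called (limma adjusted p = 0.698). When rescaled, snap25a was called lower (limma adjusted p = 0.0330). The marker that fell, stmn1b, averaged 331.7 ± 2.94 TPM in libraries labelled -/- and 397.0 ± 11.6 TPM in those labelled +/+ (limma adjusted p = 0.0250). Of 19 tested markers of spinal cord and hindbrain neurons 13 rose and 1 fell (12 and 2 when rescaled). Their sums were 150.4 to 195.3 TPM in libraries labelled -/- and 113.4 to 134.4 TPM in those labelled +/+. One further gene, 1 of the 2 named evx1, was at 0 in every library. Of 10 markers of the posterior body and fins 1 rose and 1 fell (0 and 3 when rescaled). Their sums were 567.8 to 905.9 TPM in libraries labelled -/- and 670.6 to 965.3 TPM in those labelled +/+, which overlap. Without replicate 1 or replicate 2 labelled +/+, no marker of these 3 lists was called; without replicate 1 or replicate 3 labelled -/-, 6 and 5 of the spinal and hindbrain markers were called higher. Their part in the Hox differences was not tested.

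The authors' deposited table holds their own test per gene, and nothing in it states the direction of its fold change. All 48 Hox genes are in it, with mean normalized counts of 64.9 to 2108. At an adjusted p under 0.05 the authors' deposited table has 4 Hox genes with a negative and 8 with a positive fold change, where 18.4% and 13.5% of its genes are called so, 31.9% in all. Negative in the authors' deposited table are hoxb4a (-0.72, adjusted p = 0.000237), hoxb3a (-0.56, 0.00207), hoxc4a (-0.66, 0.00281) and hoxb2a (-0.56, 0.00504), all of which rose in the TPM comparison. The 8 positive genes in the authors' deposited table are hoxc5a, hoxb5b, hoxc8a, hoxd11a, hoxd13a, hoxc6a, hoxc6b and hoxc11b, with fold changes of 0.45 to 0.68 on the log2 scale. Of the 9 genes called from TPM as deposited, 7 are called in the authors' deposited table, and hoxb5a (adjusted p = 0.0826) and hoxb8a (0.167) are not. There stim2a stands at -1.73 and stim2b at -1.19. Its signs are opposite to those of the rescaled TPM comparison for 47 of the 48 Hox genes, and to those from TPM as deposited for 35. That table and the TPM values come from the same libraries.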

How the data were processed

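Titles in the labels gave group and replicate number, and the repository's file record tied each table to a sample. Each sample has a gene table in StringTie's layout, per the file headers. The authors' deposited values are coverage (signal per base), FPKM (scaled by gene length and sequenced fragments) and TPM (1000000 in total in each library). The authors' own test is deposited as a table with DESeq2 columns, per the file headers: mean normalized signal, log2 fold change, its error, a test score, and raw and adjusted p-values. Tools listed in the submitters' processing notes are DESeq2 1.16.1, STAR 2.5.3a and StringTie 1.3.3b, next to the builds danRer11 and hg38, with no roles. TPM keeps no absolute depth; the ratio of coverage to FPKM, which follows depth, ran from 4.48 to 5.73 over the 6 libraries. Per the labels' protocols, polyadenylated RNA was read in stranded, paired libraries of 75 bases.

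Of the 48 Hox genes, 15 carry a paralog symbol in the table of Ensembl names and 33 were given one through RefSeq (GRCz12tu, names only) where 1 symbol matched on the same chromosome. limma 3.58.1 in R 4.3.3 (lmFit, eBayes with trend) was run on log2(TPM + 0.5) over the 24682 genes above 0.1 TPM in at least 3 of 6 libraries, with Benjamini-Hochberg adjustment and calls at 0.05. Log2 differences are libraries labelled -/- minus libraries labelled +/+ on that scale, which understates low genes. "Rescaled" divides each library by its median gene ratio over 18657 genes. Deviations from the group means of same-numbered samples correlated across genes at 0.20, 0.15 and 0.41 for replicates 1, 2 and 3. This passes a rule asking for over 0.1 in every pair, although replicate 2 labelled -/- correlated more with replicate 1 labelled +/+ (0.23), and over the Hox genes alone replicate 2 gave -0.17; the pairing comes from the data alone, as the labels record neither clutches nor days. Alternatives were other pseudocounts, filters, units and scalings, the replicate block, and each library left out; the last with rescaling was chosen after seeing the data. All Hox genes may be named, and of each other list the 4 with the smallest p. The neuron markers snap25a and stmn1b are named in addition, because they did not rise with snap25b. The Hox genes and all lists were chosen with earlier results of these data known.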

Additional observations from a re-analysis of the deposited data

How the results depend on the processing

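The 9 calls kept their direction in every fit run. Hox genes called lower numbered 7 with FPKM, 12 when rescaled, 16 with quantile scaling, 7 with the replicate block and 17 with block and rescaling; without a filter 3 were called higher. The block changed none of the 9 calls and added 5. Over all genes, 9529 were called higher with the block, and 3143 lower with FPKM, 4780 rescaled, 4347 with quantile scaling and 6204 with block and rescaling. Leaving out single libraries gave 0 to 7 Hox genes higher and 0 to 4 lower, and over all genes 254 to 7951 higher and 344 to 1798 lower. Rescaled, it gave 0 to 5 and 4 to 14 Hox genes, and 1217 to 4612 and 1499 to 4958 over all genes. The Hox median minus that of all genes, -0.19, was -0.14 without a filter, -0.27 with quantile scaling and, without single libraries, -0.21 to -0.17 as deposited and -0.25 to -0.17 rescaled. Signs of Hox genes that were not called moved with the scale: 12 differed when rescaled, 14 with quantile scaling and 6 with FPKM. The 3 pools a group and unknown depth limit what can be told of genes near 1 TPM.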

Other observations

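Other genes tied to the Hox clusters were looked at as lists, and their part in the Hox differences was not tested. Of 29 tested genes for chromatin regulators of Hox clusters, 14 rose and 2 fell in libraries labelled -/- (12 and 5 when rescaled), where 25.2% of all genes rose and 8.23% fell (18.6% and 19.4% when rescaled). men1, a subunit of trithorax-type complexes that keep Hox genes active, averaged 11.9 ± 1.77 TPM in libraries labelled -/- and 6.71 ± 1.23 TPM in those labelled +/+ (limma adjusted p = 0.0174). cbx7a, a Polycomb reader, averaged 12.7 ± 0.375 TPM in libraries labelled -/- and 17.9 ± 0.222 TPM in those labelled +/+ (limma adjusted p = 0.0136). Of 9 tested evx and ParaHox genes, relatives of the Hox genes, 5 rose and none fell. All of these 5 except pdx1 are counted above as well, among the upstream regulators or the spinal and hindbrain markers. evx2, a spinal interneuron factor, averaged 2.16 ± 0.497 TPM in libraries labelled -/- and 1.07 ± 0.231 TPM in those labelled +/+ (limma adjusted p = 0.0227).

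Of 28 tested homeobox and other regulators of the forebrain and midbrain, where Hox genes are silent, 11 rose, none fell and 17 were not called. Among all genes 25.2% rose and 8.23% fell. A positive difference was found for 22 of the 28, with a median log2 difference of 0.48 (0.17 for all genes). When rescaled, 10 rose and 3 fell, where 18.6% of all genes rose and 19.4% fell. Of these 3, 1 is counted above as well, among the spinal and hindbrain markers that fell when rescaled. No gene of these 3 lists was called without replicate 1 or replicate 2 labelled +/+, and without replicate 1 or replicate 3 labelled -/- 3 and 3 of the brain genes, 3 and 3 of the evx and ParaHox genes and 5 and 6 of the chromatin genes were called higher. pax2a, of the midbrain-hindbrain boundary, averaged 8.25 ± 1.99 TPM in libraries labelled -/- and 3.13 ± 1.14 TPM in those labelled +/+ (limma adjusted p = 0.0148).

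Of 63 tested genes within 200 kb of a Hox cluster, 10 rose and 9 fell, or 15.9% and 14.3%, where 25.2% of all genes rose and 8.23% fell. When rescaled, 4 rose and 16 fell, where 18.6% of all genes rose and 19.4% fell. As deposited, 8 of the 9 that fell stood beside hoxbb, where 14 neighbours were tested. Without replicate 1 labelled +/+ 1 neighbour was called, without replicate 2 labelled +/+ none, and without replicates 1 or 3 labelled -/- 4 and 3 were called higher and 3 and 5 lower. psme3, a proteasome activator subunit, averaged 31.1 ± 0.175 TPM in libraries labelled -/- and 40.8 ± 1.05 TPM in those labelled +/+ (limma adjusted p = 0.0162). The hoxbb genes themselves summed to 20.3 ± 1.2 TPM in libraries labelled -/- and 23.5 ± 0.658 TPM in those labelled +/+.

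Among markers of other tissues, 2 of 4 skin genes fell, with sums of 7823 to 8733 TPM in libraries labelled -/- and 9662 to 10588 TPM in those labelled +/+. For the counts of these tissues, 25.2% of all genes rose and 8.23% fell. When rescaled, 2 skin genes, 2 liver genes and 1 red cell gene fell and no muscle gene rose, where 18.6% of all genes rose and 19.4% fell. No skin gene was called without replicate 1 or replicate 2 labelled +/+. Of 3 liver genes 2 fell (1 without replicate 1 and 0 without replicate 2 labelled +/+), of 4 muscle genes 1 rose (0 without replicate 1 or 3 labelled -/- or 1 or 2 labelled +/+), and none of the 2 red cell genes and the 1 pancreas gene passed.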
